A study of Mus musculus with 6 samples.

Results

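Paneth cells sit at the base of small intestinal crypts and secrete antimicrobial proteins. The chromatin around 10 genes grouped as Paneth cell antimicrobial and secretory genes was examined in crypts with and without the chromatin remodeler Smarcad1. The genes were Lyz1, Lyz2, Defa22, Defa26, Ang4, Mmp7, Itln1, Reg3b, Reg3g and Pla2g2a. The group includes Lyz2, which is the lysozyme gene of macrophages and other myeloid cells. Members were found by name: a peak belonged to a gene when the gene column of the deposited peak table held exactly that symbol. Of 123510 peaks, 9 carried the name of a member, and these belonged to 5 of the 10 genes. Itln1 had 5 peaks, Lyz1, Lyz2, Reg3b and Reg3g had 1 each, and no peak was named for Defa22, Defa26, Ang4, Mmp7 or Pla2g2a.

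The assay was ATAC-seq, which reads out open DNA through the cuts of a transposase, applied to nuclei of whole crypts from the small intestine of C57BL/6 mice. There were 3 wild type (WT) libraries and 3 libraries with Vil-Cre mediated KO of Smarcad1, written Smarcad1-KO or KO. Cre under the Villin promoter acts in the intestinal epithelium, so other cells of the tissue keep the gene, and the floxed allele came from 1 targeted mouse line. The age of the mice is not given in the sources used here, nor is it said whether the WT mice carried the floxed allele or Cre. Libraries are named by group and number (WT1 to WT3, KO1 to KO3), and separate mice are not stated for each number, so p-values measure the spread between these libraries.

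The values are log2 read counts per peak, scaled by the authors to the largest library. A difference of 1 on this scale is a doubling. The WT libraries held 6180717 to 16301164 reads in peaks and the KO libraries 4339306 to 7721797. Over all peaks, limma called 0 at an adjusted p below 0.05, and 2821 (2.28%) had an unadjusted p below 0.05. The median log2 value of peaks near a gene start exceeded that of distal peaks by 1.73 (KO2) and 1.81 (WT2) in the libraries numbered 2, and by 2.12 (WT3) and 2.28 (KO3) in those numbered 3. Of 7 Paneth marker genes, 2 (Lyz1 and Itln1) had a named peak. Their 6 peaks summed to scaled counts of 328 to 404 in WT and 363 to 555 in KO, and the 22 peaks of 4 of 5 stem cell markers to 2667 to 4886 and 2900 to 5327. Stromal (5 of 5, 16 peaks) and immune (4 of 9, 10 peaks) marker genes also had peaks, at sums of 1019 to 1150 and 634 to 746 in WT and 995 to 1161 and 647 to 770 in KO. The sums cover unequal numbers of peaks, and the median log2 value per peak in WT was 5.61 for the Paneth, 7.13 for the stem cell, 5.82 for the stromal and 5.35 for the immune markers. In a mixed crypt preparation, fewer cells of a type and less accessible chromatin per cell cannot be told apart.

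As background, Paneth cell granules carry lysozyme (Lyz1), which cuts bacterial cell walls, α-defensin peptides (Defa22, Defa26), which permeabilize bacterial membranes, the ribonuclease angiogenin 4 (Ang4) and the secretory phospholipase A2 of group IIA (Pla2g2a). Mmp7 is the protease that processes pro-α-defensins in mice. Itln1 encodes a lectin that binds microbial glycans, and Reg3b and Reg3g encode C-type lectins that act on bacteria and are also made by other epithelial cells. Lyz2 is the lysozyme gene of macrophages and other myeloid cells and lies next to Lyz1.

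The sequences of 4 promoters and 3 upstream sites are shown because the presence or absence of a peak at the start, and the differences upstream of Lyz1 and Itln1, carry the results. Each promoter is the 250 bases before the RefSeq gene start and each upstream site is the central 300 bases of a peak, all in GRCm38 and written 5′ to 3′ on the strand of the gene. They lie at chr10:117292869-117293118 (Lyz1), chr10:117282273-117282522 (Lyz2), chr6:78468875-78469124 (Reg3g) and chr8:21162027-21162276 (Defa22). The upstream sites lie at chr10:117299776-117300075 and chr10:117309226-117309525 for Lyz1 and at chr1:171538276-171538575 for Itln1. Reg3g and Defa22 are on opposite strands (minus and plus), and Lyz1, Lyz2 and Itln1 are on the minus strand. Capitals mark matches on either strand to 5 motifs. The TATA box was searched as TATAAA. The core of TCF/LEF factors was searched as TCAAAG. An E-box was searched as CAGCTG. The core of SOX factors was searched as ACAATG. A STAT site was searched as TTCNNNGAA. Where matches abut, as at the Itln1 site, the TATA box (there as TTTATA on the other strand) and the SOX core share a base.
Lyz1 promoter: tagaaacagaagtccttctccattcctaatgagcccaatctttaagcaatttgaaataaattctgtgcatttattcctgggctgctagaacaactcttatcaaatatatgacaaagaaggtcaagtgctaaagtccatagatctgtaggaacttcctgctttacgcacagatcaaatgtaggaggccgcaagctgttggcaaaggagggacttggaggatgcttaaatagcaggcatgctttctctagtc
Lyz2 promoter: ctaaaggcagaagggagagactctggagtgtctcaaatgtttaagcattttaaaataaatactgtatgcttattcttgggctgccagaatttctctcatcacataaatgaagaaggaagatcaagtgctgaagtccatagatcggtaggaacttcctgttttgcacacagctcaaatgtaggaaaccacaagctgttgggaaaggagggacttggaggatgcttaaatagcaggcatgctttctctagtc
Reg3g promoter: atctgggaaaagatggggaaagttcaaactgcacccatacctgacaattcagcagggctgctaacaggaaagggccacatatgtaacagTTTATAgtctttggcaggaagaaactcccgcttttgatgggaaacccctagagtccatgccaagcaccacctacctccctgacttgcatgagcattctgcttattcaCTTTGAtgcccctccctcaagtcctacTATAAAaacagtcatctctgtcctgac
Defa22 promoter: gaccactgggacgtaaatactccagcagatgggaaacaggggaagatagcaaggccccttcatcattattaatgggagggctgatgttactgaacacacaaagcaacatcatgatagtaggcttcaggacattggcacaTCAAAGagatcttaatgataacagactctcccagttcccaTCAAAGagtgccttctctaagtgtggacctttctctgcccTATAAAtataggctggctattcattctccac
Lyz1 upstream site, 6.53 kb before the start: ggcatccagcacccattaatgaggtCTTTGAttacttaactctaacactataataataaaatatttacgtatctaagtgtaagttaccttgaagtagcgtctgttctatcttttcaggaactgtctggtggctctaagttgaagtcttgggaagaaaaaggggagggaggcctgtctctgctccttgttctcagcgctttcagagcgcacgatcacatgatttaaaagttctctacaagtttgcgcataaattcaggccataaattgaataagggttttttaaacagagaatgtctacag
Lyz1 upstream site, 16.28 kb before the start: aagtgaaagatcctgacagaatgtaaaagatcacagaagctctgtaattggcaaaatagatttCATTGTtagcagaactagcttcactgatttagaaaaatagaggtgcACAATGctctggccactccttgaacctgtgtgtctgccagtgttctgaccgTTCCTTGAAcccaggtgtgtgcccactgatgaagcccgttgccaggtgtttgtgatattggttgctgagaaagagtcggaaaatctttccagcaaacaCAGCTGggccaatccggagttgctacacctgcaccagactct
Itln1 upstream site, 2.76 kb before the start: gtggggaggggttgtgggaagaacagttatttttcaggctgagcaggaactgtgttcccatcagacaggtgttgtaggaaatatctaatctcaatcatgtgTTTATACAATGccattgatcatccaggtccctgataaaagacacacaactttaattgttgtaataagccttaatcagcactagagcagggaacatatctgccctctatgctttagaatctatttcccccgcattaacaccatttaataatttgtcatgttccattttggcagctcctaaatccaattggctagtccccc

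The RefSeq promoter table held 8 of the 10 members. TATAAA was found in 4 of the 8 (Defa22, Mmp7, Reg3b and Reg3g), and in 12.4% of 32851 promoters of the same length. The match nearest the start began 31 bases before it in Defa22, 26 in Mmp7, 29 in Reg3b and 27 in Reg3g. Defa22 and Mmp7, which had no peak within 1 kb of the start, and Reg3b and Reg3g, which had one, thus share these letters. TCAAAG was found in 3 of the 8 (Defa22, Reg3b and Reg3g) against 13.8% of all promoters, and CAGCTG in 0 of 8 against 13.0%. ACAATG was found in 1 (Mmp7) against 10.7%, and TTCNNNGAA in 2 (Ang4 and Reg3b) against 7.0%. The Lyz1, Lyz2 and Itln1 promoters held none of the 5 motifs. These matches are descriptions of letters, and the motifs were chosen after the sequences had been seen. The Lyz1 and Lyz2 promoters were identical at 200 of 252 aligned positions (79.4%) and at 92 of the 100 bases nearest the start, and those of Reg3b and Reg3g at 173 of 253 (68.4%). GC content was 41.2% for Lyz1, 41.6% for Lyz2, 38% for Itln1, 42.8% for Reg3b and 47.2% for Reg3g, each below the median of all promoters (52.4%).

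The first comparison was of which genes had a peak at all. Lyz1, Itln1, Reg3b and Reg3g had a peak within 1 kb of their annotated start, 4 of the 10 members, while 59.2% of 21951 protein-coding genes did. A peak carrying the gene's name was present for 5 of the 10 members and for 65.3% of protein-coding genes. For the genes without a named peak, the closest peak lay 29.23 kb from Defa22 (8:21162277-21163249), 69.18 kb from Defa26 (8:21618183-21618972) and 6.56 kb from Ang4 (14:51763878-51773590). The closest peak to Mmp7 (9:7692090-7699585) was 1.74 kb away and carried the name AV064505, and the closest to Pla2g2a (4:138831857-138835186) was 1065 bp away and carried the name Pla2g5. Pla2g2a is annotated in GENCODE as a polymorphic pseudogene, and whether these mice make the protein was not tested.

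The share of sequence in which short reads can be placed once differed between these genes, and reads of low mapping quality had been removed before peaks were called. Of all 50-base stretches within the gene and 5 kb on each side, only 17.4% at Defa22 and 20.3% at Defa26 occurred once in the genome, and 63.3% at Ang4. The share was 82.9% at Mmp7 and 93.8% at Pla2g2a, and within their gene bodies 99.9% and 100% of stretches were unique. At the genes with a start peak it was 86.5% (Lyz1), 73.8% (Itln1), 98.0% (Reg3b) and 92.0% (Reg3g). The values at Defa22 and Defa26 were the lowest of the 10 genes. These stretches take single reads of 50 bases, not read pairs, and the part of mappability in the absence of peaks was not tested. In a wider Paneth list, 0 of 11 other α-defensin genes had a named peak. Of 7 genes listed as other secreted products, 5 had one, Nupr1 among them, although it encodes a chromatin protein. The mappability of the genes in both classes was not computed.

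Among the genes with a peak at the start, accessibility in WT was moderate. Per kb of peak, the mean scaled count of the 3 WT libraries was 128 ± 26 (SD) for Lyz1, 122 ± 10.6 for Itln1, 110 ± 50.5 for Reg3g and 107 ± 49.7 for Reg3b. These neighbours in the order differed by less than the larger of their SDs. All 4 were above the median of all peaks (88.2 per kb) and below the median of the 16854 peaks within 1 kb of a gene start (134.9 per kb), with percentiles of 47.3 (Lyz1), 44.8 (Itln1), 39.5 (Reg3g) and 38 (Reg3b) among the latter. The Lyz2 peak lay 3.43 kb past the 3′ end of the gene in intergenic DNA and had 89.1 ± 42.0 per kb, close to the median of all peaks.

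**Figure D1:**
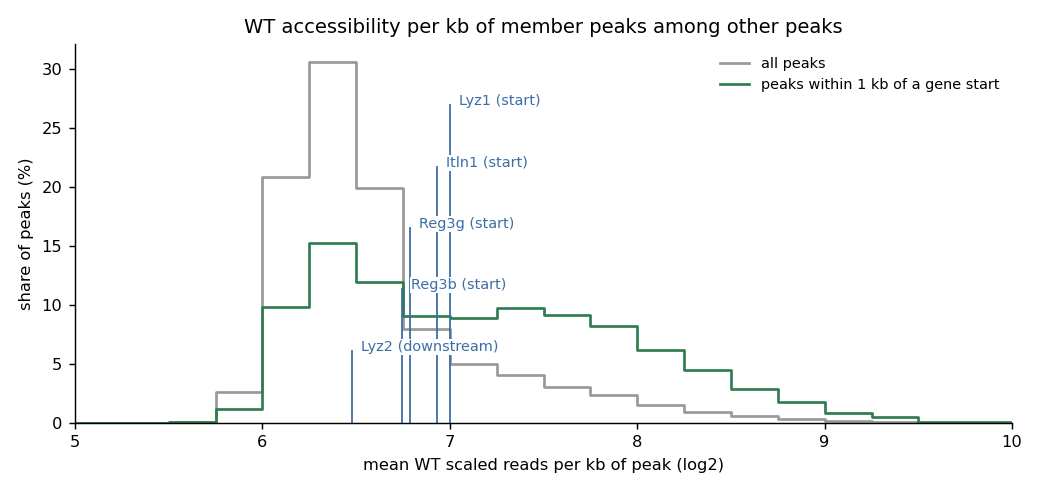
Mean scaled reads per kb in the 3 WT libraries (log2 axis) against the share of peaks (%), for all peaks (grey) and peaks within 1 kb of a gene start (green); vertical lines mark member peaks, and their heights only separate the labels. The 4 start peaks lie between 107 and 128 per kb (6.7 to 7.0 on the log2 axis), left of the promoter median of 134.9, and Lyz2 lies near the median of all peaks.

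The second comparison was KO against WT at the member peaks. None of the 9 was called at an adjusted p below 0.05 (background 0.0%). With an unadjusted p below 0.05 there were 2, both higher in KO and both upstream of Itln1. At that p, 0.909% of all peaks were higher and 1.37% lower. In 1 of the 9 every KO library exceeded every WT library, against 2.7% of all peaks, and in 0 every KO library was lower, against 4.1% (6.8% in either direction). KO minus WT was positive at 8 peaks and negative at 1, with a median log2 difference of 0.10 beside −0.02 over all peaks, and the values ran from −0.02 to 0.87.

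At the Lyz1 start (chr10:117292351-117293250, covering the first exon), the log2 values were 6.70, 6.63 and 7.15 in WT1 to WT3 and 7.08, 6.38 and 7.17 in KO1 to KO3, from 36 to 142 reads. The groups overlapped, with the lowest and the highest value both in KO. The difference, KO minus WT, was 0.05 with an SE of 0.30 (limma, adjusted p = 1). Of its 50-base stretches 92.7% were unique, so part of its sequence is shared with another place in the genome.

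At the Lyz2 peak (chr10:117273601-117273900) the values were 3.97, 5.34 and 4.59 in WT and 4.58, 5.16 and 5.32 in KO, from only 8 to 25 reads. The groups overlapped, and the WT values alone spanned more than a doubling. The difference was 0.39 with an SE of 0.39 (limma, adjusted p = 1). Lyz1 exceeded Lyz2 by 2.2 ± 0.78 (SD, n = 3) in WT and 1.85 ± 0.64 in KO on the log2 scale of counts per peak, which are not corrected for width (900 bp for Lyz1 and 300 bp for Lyz2). Per kb the WT means were 128 and 89.1. The Lyz1 peak covers the gene start and the Lyz2 peak lies past the 3′ end of its gene, so unlike sites are compared. The log2 gap between these peaks changed by −0.34 between the groups (exact two-sided permutation test, p = 0.5, Benjamini-Hochberg adjusted over 2 gene pairs 0.8), in a design whose smallest possible p is 0.1.

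At the Reg3b start (chr6:78370351-78371400) the values were 6.86, 5.88 and 7.35 in WT and 6.77, 6.25 and 7.21 in KO, from 32 to 163 reads. At the Reg3g start (chr6:78468301-78469800) they were 7.28, 6.58 and 7.94 in WT and 7.58, 6.47 and 8.06 in KO, from 52 to 246 reads. In both genes, and in both groups, the library numbered 2 was lowest and the library numbered 3 highest. KO minus WT was 0.05 with an SE of 0.37 for Reg3b and 0.11 with an SE of 0.42 for Reg3g (limma, adjusted p = 1 for both). The mean of the libraries numbered 3 exceeded that of the libraries numbered 2 by 1.21 at Reg3b and 1.48 at Reg3g, more than 10 times either difference between genotypes. The same order was seen in the contrast between start and distal peaks given above, and its part in these values was not tested. On the log2 scale of counts per peak, Reg3b (1050 bp) minus Reg3g (1500 bp) was −0.57 ± 0.14 in WT and −0.63 ± 0.35 in KO, a change of −0.06 (exact permutation test, p = 0.8, adjusted 0.8). Per kb the WT means were 107 and 110.

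**Figure D2:**
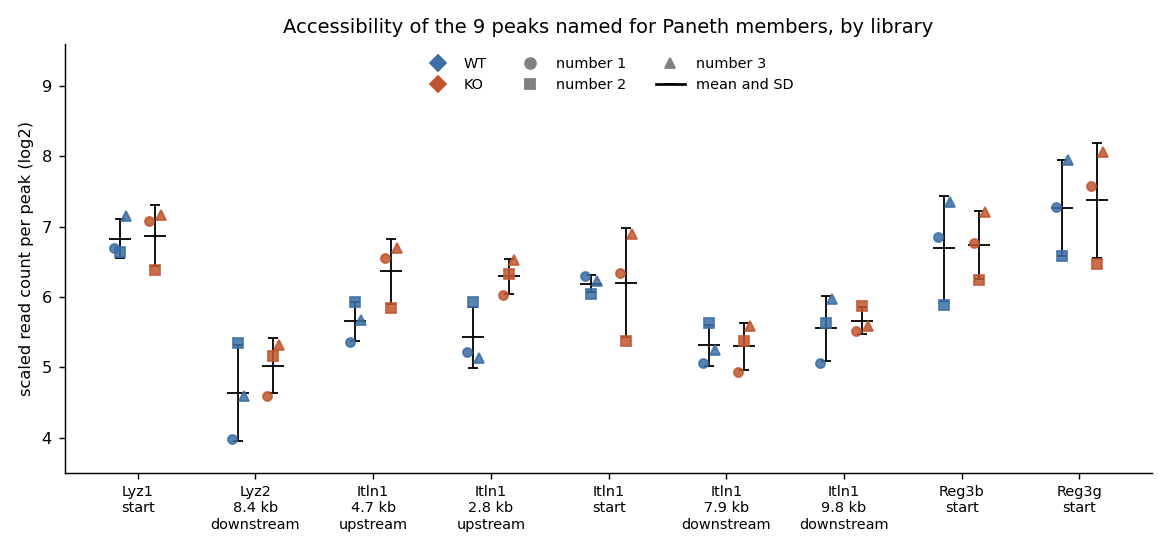
Scaled read count per peak (log2) of the 9 member peaks in the 3 WT (blue) and 3 KO (orange) libraries; symbols give the library number, and black bars the mean and SD (n = 3). At 8 peaks the groups overlap, at the Itln1 peak 2.8 kb upstream all KO values (6.03 to 6.52) lie above all WT values (5.13 to 5.92), and at the Reg3b and Reg3g starts number 3 is highest and number 2 lowest.

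Itln1 (1:171518122-171535294, minus strand) had the most peaks. Whether its peaks differed from each other in their KO minus WT values was not tested. At the start (chr1:171535051-171535650) the log2 values were 6.30, 6.05 and 6.23 in WT and 6.33, 5.38 and 6.90 in KO. The WT libraries lay close together and the KO libraries on both sides of them. The groups differed by 0.01 with an SE of 0.34 (limma, adjusted p = 1). The pair of intronic peaks had differences of 0.10 and −0.02.

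Both named peaks upstream of Itln1 had the higher mean in KO. In the intergenic peak 2.76 kb before the start (chr1:171538051-171538800) the values were 5.22, 5.92 and 5.13 in WT and 6.03, 6.33 and 6.52 in KO, from 19 to 56 reads. Every KO library was above every WT library. KO minus WT was 0.87 with an SE of 0.28, or 1.83-fold (limma, unadjusted p = 0.00753, adjusted p = 1). In the next peak, 4.71 kb before the start (chr1:171540001-171540600), the values were 5.37, 5.92 and 5.67 in WT and 6.55, 5.84 and 6.70 in KO. Here KO2 lay below WT2 and the other KO libraries lay above all WT libraries. The difference was 0.71 with an SE of 0.29, or 1.64-fold (limma, unadjusted p = 0.0263, adjusted p = 1). Neither difference passed the adjustment over all peaks.

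Summed over its 5 peaks, Itln1 had log2 values of 7.81, 8.16 and 8.03 in WT and 8.30, 8.13 and 8.68 in KO. KO2 lay below WT2, so the groups overlapped. The difference was 0.37 (exact two-sided permutation test, p = 0.2, adjusted over 5 genes 1), and with 3 libraries a group the smallest possible p is 0.1, so no value could pass 0.05. For the genes with 1 peak the same exact permutation test gave p = 0.9 for Lyz1, 0.7 for Lyz2, 1 for Reg3b and 0.8 for Reg3g.

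Because several members had no named peak, peaks within 20 kb of a member gene were also examined, which added 22 peaks that carry another name or none. The individual peaks described next were chosen after their values were seen. In the limma fit of all 6 libraries without a block, none of the 31 named and nearby peaks was called at an adjusted p below 0.05. Calls under other settings are given in the last section. Of the 22, 4 had an unadjusted p below 0.05, all higher in KO (background 0.909%), and in 5 the KO libraries all exceeded the WT libraries (background 2.7%). Some of these sites were among the weakest peaks in WT and may have entered the peak set through KO reads. This limits the comparison with the background shares. The median difference of the 22 was 0.21. The individual sites are given in turn, apart from a peak named Gm9765 that lay 18.69 kb downstream of the Itln1 start, where the groups did not overlap and the difference was 0.50 (limma, unadjusted p = 0.0951).

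The largest differences lay upstream of Lyz1, in intergenic DNA that carries no gene name. In the peak 6.53 kb before the Lyz1 start (chr10:117299401-117300450) the log2 values were 6.14, 6.13 and 6.67 in WT and 7.85, 7.09 and 8.34 in KO, from 36 to 106 reads. The lowest KO library (KO2) was above the highest WT library (WT3). KO minus WT was 1.45 with an SE of 0.33, or 2.72-fold (limma, unadjusted p = 0.000611, adjusted p = 1), the 51st smallest p of all peaks. Without KO2 the difference was 1.78 and the adjusted p 0.0294 (limma), in a fit that called 0.0243% of all peaks. With each other library left out in turn the difference was 1.16 to 1.62, and the adjusted p was 0.986 or higher (limma). All of its 50-base stretches were unique in the genome. Its accessibility per kb was at the 25.7th percentile of all peaks in WT and at the 94.0th in KO.

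In the peak 16.28 kb before the Lyz1 start (chr10:117309151-117309600) the values were 3.78, 4.58 and 4.59 in WT and 6.08, 5.28 and 5.80 in KO, from 7 to 31 reads. The groups again did not overlap. The difference was 1.40 with an SE of 0.34, or 2.65-fold (limma, unadjusted p = 0.000883, adjusted p = 1). These values rest on few reads, and 65.1% of its 50-base stretches were unique. Of the central bases printed above, the 6.53 kb site holds CTTTGA, the reverse complement of TCAAAG, and the 16.28 kb site holds CAGCTG, TTCCTTGAA and ACAATG on both strands. The same letter runs occur in 19.9% (TCAAAG), 18.0% (CAGCTG), 7.8% (TTCNNNGAA) and 14.2% (ACAATG) of all peak centres of that length.

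**Figure D3:**
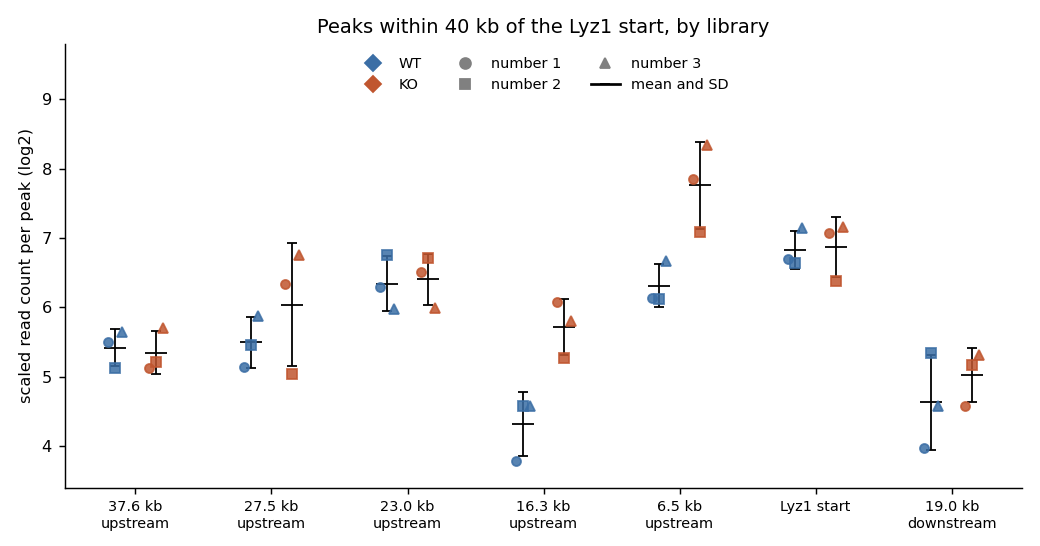
Scaled read count per peak (log2) for each of the 7 peaks within 40 kb of the Lyz1 start, placed in order along the locus and labelled by distance from the start, in WT (blue) and KO (orange) libraries; symbols give the library number and black bars the mean and SD (n = 3). At the sites 6.5 and 16.3 kb upstream all KO values lie above all WT values, whereas at the Lyz1 start and at the other sites the groups overlap.

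A further peak upstream of Itln1, 9.21 kb before the start and unnamed (chr1:171544501-171545400), had values of 5.93, 6.13 and 5.67 in WT and 6.41, 6.69 and 6.95 in KO. The groups did not overlap, and KO minus WT was 0.77 with an SE of 0.26, or 1.71-fold (limma, unadjusted p = 0.0105, adjusted p = 1). The 3 consecutive peaks from 2.76 to 9.21 kb upstream of Itln1 had differences of 0.71 to 0.87 and the start peak one of 0.01. The peak 4.71 kb upstream holds TCAAAG and the one 9.21 kb upstream holds its reverse complement within the central 300 bases.

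Of the members without a named peak, Pla2g2a had one such neighbour. In an intron of Pla2g5, 9.94 kb from the Pla2g2a start (chr4:138841801-138842250), the values were 4.78, 4.88 and 4.00 in WT and 5.52, 5.47 and 6.00 in KO, from 14 to 31 reads. The groups did not overlap, and KO minus WT was 1.11 with an SE of 0.32, or 2.16-fold (limma, unadjusted p = 0.00354, adjusted p = 1). The peak 1.74 kb before the Mmp7 start (chr9:7689301-7690350), which overlaps an exon of Gm19212, had 6.83, 6.31 and 7.25 in WT and 6.77, 6.30 and 7.67 in KO. Those groups overlapped, with a difference of 0.12 (limma, unadjusted p = 0.746). The peak nearest Ang4 had a difference of −0.54 (limma, unadjusted p = 0.198).

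Seen along the locus, 6 peaks lay within 100 kb upstream of Lyz1, and the other 4 had differences of −0.08 to 0.55 with overlapping groups. Within 100 kb of the gene on either side there were 12 peaks with a median difference of 0.06. Among them the groups also did not overlap at a peak 82.87 kb downstream of the start. Its difference was 0.42 (limma, unadjusted p = 0.123). Around Itln1 there were 18 peaks with a median of 0.03, and the 3 with an unadjusted p below 0.05 are the upstream sites already given. Around Reg3b 0 of 8 peaks and around Reg3g 1 of 13 had an unadjusted p below 0.05, where 2.28% of all peaks did.

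Several of the sites that were higher in KO were among the weakest peaks of the table in WT. Accessibility per kb in WT was at percentile 0.5 for the Itln1 site at 2.76 kb, 6.1 for the one at 9.21 kb and 0.1 for the Pla2g5 intron, and these same sites were at 70.0, 76.2 and 75.5 in KO. The Lyz1 site at 16.28 kb had 45.7 scaled reads per kb in WT and 120 in KO, at the 78.1st percentile. One peak set served all 6 libraries, so a site this weak in WT could have entered the set through KO reads, and a difference would then follow from that choice. Whether it did was not tested. The counts of member and nearby peaks higher in KO include these sites and share this limit.

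**Figure D4:**
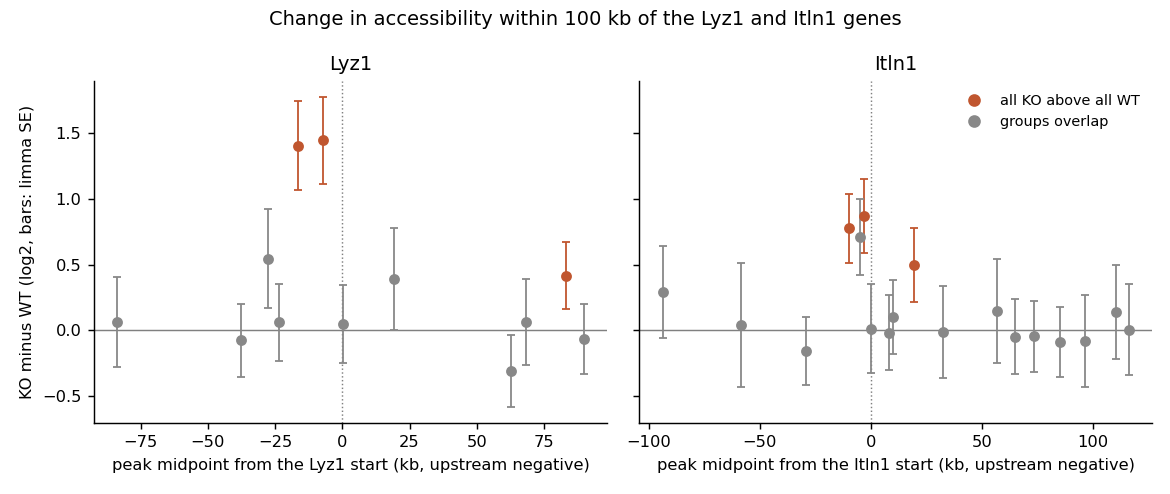
KO minus WT (log2, bars: limma SE) for every peak within 100 kb of the Lyz1 gene (left, 12 peaks) and the Itln1 gene (right, 18 peaks), against the distance of the peak midpoint from the gene start in kb, with upstream negative. Orange points are peaks at which all 3 KO values lie above all 3 WT values; the 2 upstream Lyz1 sites at 1.40 and 1.45 and the Itln1 sites just upstream stand above the start peaks, which lie near 0.

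The other genes of the Paneth programme were read from a list of 38 genes, of which 25 had 86 named peaks. None was called at an adjusted p below 0.05. With an unadjusted p below 0.05, 4 peaks were higher in KO (0.909% of all peaks) and 0 lower (1.37% of all peaks), and in 5 the KO libraries all exceeded the WT libraries (2.7% of all peaks). The former were at Nupr1, Ern1 and Ephb2 (2 peaks), and the latter at Nupr1, Ephb2, Tgfa, Wnt3 and Tcf7l2, some of them named after their values were seen. The median difference was 0.08, with 59 peaks positive and 27 negative, beside 57876 and 65634 of all peaks. All 5 niche ligand genes (such as Wnt3 and Egf, which feed stem cells) and all 15 regulator and receptor genes had peaks. The smallest p among the higher peaks was at the Nupr1 start, where the mean was 6.61 ± 0.20 (SD, n = 3) in WT and 7.29 ± 0.35 in KO (limma, difference 0.68, SE 0.28, unadjusted p = 0.0294). Nupr1 encodes a stress-responsive chromatin protein. Next were intronic peaks of Ern1, the unfolded protein sensor IRE1α, with a difference of 0.87 (SE 0.37), and of Ephb2, a receptor that positions crypt cells, with 0.66 (SE 0.28). In the other direction the smallest p values were at Egf (−0.37, limma, unadjusted p = 0.306), Tcf7l2 (−0.26, 0.324) and Kit (−0.24, 0.432).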

How the data were processed

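ATAC-seq reads of 50 bp from 50000 cells per library were, according to the submitters' processing notes and methods, trimmed with Trim Galore 0.4.1, mapped to GRCm38 with Bowtie2 2.2.5 and filtered on mapping quality and duplicates in SeqMonk, where a single set of MACS peaks was called. The libraries pooled for that call are not stated. The values that the authors deposited are log2 read counts per peak, scaled to the largest library, and the authors named a peak after a gene within 5 kb. A second table of peaks selected by the authors' edgeR test holds their adjusted p-values and was not used.

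Every one of the 123510 peaks was fitted with limma 3.58.1 in R 4.3.3 (lmFit, eBayes with trend, two-sided, no covariate) with Benjamini-Hochberg adjustment over all peaks, and rows of interest were then read out. limma was run on the deposited log2 values, in place of the authors' edgeR. The authors reported sites changed in accessibility by edgeR, so the lack of calls among all peaks belongs to the limma fit. Their paper names Lyz1 among the genes with both gained accessibility and lower H3K9me3, a repressive histone mark, in KO. It also reports Lyz1 as overexpressed there. Which peak gave that Lyz1 result was not examined here. Whole reads were recovered from the value of 1 read in each library (100% of values whole within 0.01 of a read), which gave depths and a count-based alternative, voom. These are reads left after the authors' removal of duplicates, and whether each stands for a separate molecule was not tested. Gene positions were from GENCODE vM21 and sequences from RefSeq and the GRCm38.p6 genome. Summed values used exact permutation tests. The fit was tested on simulated data.

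The members and the gene lists were chosen with earlier results of these data known. By the naming rule, every member is named, with its strongest peak and each member peak with an unadjusted p below 0.05 or without overlap in full, and 3 genes per direction from the wider Paneth list. The markers of goblet cells (5 of 7 genes with 14 peaks, summed scaled counts of 2361 to 3355 in WT and 2368 to 3787 in KO) and enterocytes (4 of 8 with 20 peaks, 2935 to 3910 and 2694 to 3787) were read in the same way as those given in the text. Alternatives were 2 further scalings, voom, a minimum mean of 50, a pseudocount of 5, the replicate number as a block, each library left out, and peaks within 20 kb; the block combined with the 20 kb window, and the alternatives for nearby peaks, were added after seeing the data.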

Additional observations from a re-analysis of the deposited data

How the results depend on the processing

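The number of peaks called among all peaks was 0 with the minimum mean of 50 (69134 peaks tested) and with the pseudocount, 2 after centring, 3 after quantile normalization and 3 with voom. It ranged from 0 to 30 when a library was left out, with 30 (0.0243%) without KO2 and 1 without WT3. No member peak and no peak of the wider Paneth list was called under any of these. The replicate number as a block called 272 peaks (0.22%, 199 of them higher in KO), and 219 together with quantile normalization, of which 0 were member peaks; with the 20 kb window the block called 2, both upstream of Lyz1 (adjusted p = 1.12e-12 at 6.53 kb and 0.0156 at 16.28 kb; 1.66e-07 and 0.0183 with quantile normalization). The variance shared by all peaks entered the block fit with 6878.9 prior degrees of freedom, against 10.6 in the fit without a block. With quantile normalization the block fit had 54.9. The block p-values thus rest almost wholly on that shared variance and not on the spread between libraries at the peak. Same-numbered libraries correlated at 0.04, 0.42 and 0.41 after removal of group means, so the numbers were not taken to pair the libraries. Pairing by number gave exact sign-flip p = 0.5 for summed Itln1 and 0.25 for Lyz1 against Lyz2, where 0.25 is the smallest possible. Without KO2 the 6.53 kb Lyz1 site had a difference of 1.78 and an adjusted p of 0.0294. With each other library left out its adjusted p was 0.986 or higher (limma).

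KO minus WT at the Itln1 start was −0.037 under quantile normalization, alone or with the block, and −0.002 with voom, and at Reg3b −0.036 with voom. With 1 library left out it ran from −0.34 to 0.43 (Itln1 start), −0.10 to 0.29 (Lyz1), 0.06 to 0.74 (Lyz2), −0.36 to 0.37 (Reg3b) and −0.24 to 0.56 (Reg3g), summed Itln1 from 0.21 to 0.49, Lyz1 against Lyz2 from −0.79 to −0.03 and Reg3b against Reg3g from −0.264 to 0.051. The start peaks were negative without KO3 at all 4 genes and without WT2 at all 4, and also without KO1 at Itln1 and Lyz1 and without WT1 at Lyz1. The sites upstream and in the Pla2g5 intron stayed positive under every alternative that kept them, with 1 library left out at 1.16 to 1.78 and 1.14 to 1.63 for Lyz1, 0.72 to 1.12, 0.54 to 0.97 and 0.64 to 0.91 for Itln1, and 0.83 to 1.27 for Pla2g5. Without WT2 the median difference of all peaks was −0.14, and without KO3 −0.11. The cause was not tested. The Lyz2 peak, the intronic Itln1 peaks, the 16.28 kb Lyz1 site and the Pla2g5 site fell below the minimum mean, so their values rest on few reads.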
